A study of Drosophila yakuba and Drosophila melanogaster with 20 samples.

Results

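The data are positions of A-to-I RNA editing in heads of adult Drosophila melanogaster, and the subject is the set of genome tracts in which listed editing sites are most numerous. The tracts were chosen by the positions in the authors' site list alone: sites were sorted along each chromosome, neighbours at most 10000 bp apart were joined, and tracts of 8 or more sites were kept. This gave 35 tracts out of 419 tracts and single sites, and they held 484 of the 1238 listed sites (39.1%). The number of sites per tract, their spacing and their chromosome were therefore used in the choice and are given as description only. The base changes seen in the RNA-seq libraries were not used in this choice. The sources used here do not say whether the authors called the site list from some of these same libraries. Detection may therefore not be independent of the list.

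The editing of the tracts was read from 4 tables of base differences. They come from libraries of mock-treated head RNA, that is, RNA taken through the inosine-erasing protocol without acrylonitrile, and are named for 2 instruments, HiSeq with reads of 50 nt and NextSeq with reads of 86 nt, each with the numbers 1 and 2. Every fly used for them was of the strain y; cn, bw, sp, whose alleles change body and eye colour, and about 50 heads were pooled for each sample. The labels do not say whether numbers 1 and 2 are separate groups of flies, nor whether HiSeq and NextSeq tables of the same number share a library preparation. The ICE (acrylonitrile-treated) libraries of the series enter only through the site list. A site is called detected here when a table lists A-to-G at it, or T-to-C where the reference letter is T. Over the whole list 44.9% of sites were detected in HiSeq 1, 76.3% in HiSeq 2, 40.5% in NextSeq 1 and 72.0% in NextSeq 2, with 29.2% detected in all 4 libraries and 12.4% in none. The tables hold no read counts, so depth and editing levels are unknown, and a missing site may be either unread or unedited. They hold no expression values, so the labelled tissue was not checked by marker genes.

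Adenosine deaminases acting on RNA (ADARs) bind double-stranded RNA and convert adenosine to inosine, which ribosomes and reverse transcriptases read as guanosine. D. melanogaster has a single Adar gene, most active in the nervous system, and its known targets include transcripts of ion channels and of the synaptic release machinery, in which edits can change codons. Because the enzyme acts on RNA duplexes formed by folding of the transcript, several adenosines on the same strand are often edited close together. The site list names no genes, and no annotation of its genome build was used here, so the tracts are given by position (dm3, 1-based) and are numbered 1 to 35 in order of their number of sites, ties by position.

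The letters of the clusters with the most sites show how the edited adenosines are arranged. A cluster is a run of sites with no gap above 100 bp. The 5 clusters holding the most sites, with ties taken by position and leaving out sequence from arms not printed here, are shown first, followed by 3 chosen after their values were seen: the most compact cluster of 6 sites, a cluster of 6 sites in 21 bp, and a cluster that was missing from both libraries numbered 1. Each line runs 5′ to 3′ on the edited strand with 5 bases on either side. Capitals mark listed sites, A where a table gave the reference base and N where none did. Lower-case letters are reference bases at which at least 1 of the tables lists a difference, and n stands for a base for which no table has a line. The letters come from the reference column of the tables. Unlisted positions with A-to-G lines also give a lower-case a, so a is over-represented among these letters. Whether those positions are edited was not tested.
chr2L:13487533-13487625 (forward strand): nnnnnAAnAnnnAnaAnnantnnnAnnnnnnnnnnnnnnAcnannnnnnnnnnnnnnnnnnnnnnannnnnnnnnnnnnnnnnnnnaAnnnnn
chr2L:13485122-13485167 (forward strand): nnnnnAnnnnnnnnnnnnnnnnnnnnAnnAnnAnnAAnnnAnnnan
chr3L:1578915-1578997 (forward strand): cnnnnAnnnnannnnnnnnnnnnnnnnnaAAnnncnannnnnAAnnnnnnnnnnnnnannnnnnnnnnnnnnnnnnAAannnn
chr2L:14090930-14090979 (forward strand): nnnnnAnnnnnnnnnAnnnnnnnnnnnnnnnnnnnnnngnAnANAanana
chr3L:1577273-1577340 (forward strand): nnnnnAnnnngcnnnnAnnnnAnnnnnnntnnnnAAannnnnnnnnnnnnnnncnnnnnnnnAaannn
chrX:12537066-12537084 (forward strand): nnnnaAAAnnnAAAnannn
chrX:21500739-21500769 (reverse strand): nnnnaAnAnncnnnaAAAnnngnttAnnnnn
chrX:17881227-17881280 (reverse strand): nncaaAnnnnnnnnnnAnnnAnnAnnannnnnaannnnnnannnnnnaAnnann

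The 8 sites of chr2L:13487538-13487620 lay within 83 bp, and the first 5 of them within 11 bp. HiSeq 2 listed all 8 and NextSeq 2 listed 7, whereas HiSeq 1 listed 4 and NextSeq 1 listed 3. The neighbouring cluster at chr2L:13485127-13485162, with 7 sites in 36 bp, included 6 adenosines at steps of 3, 3, 3, 1 and 4 bp. HiSeq 2 again listed all of them, while both libraries numbered 1 listed 2 each. At chrX:12537071-12537079 the edited bases formed 2 runs of 3 adjacent adenosines in 9 bp, all 6 of them listed in both libraries numbered 2 and 3 of them in each library numbered 1. The cluster at chrX:21500744-21500764 held 6 sites in 21 bp on the reverse strand, detected at 5, 6, 4 and 6 sites in HiSeq 1, HiSeq 2, NextSeq 1 and NextSeq 2. The 5 sites at chrX:17881232-17881275 were listed at none in either library numbered 1, at 5 in HiSeq 2 and at 3 in NextSeq 2. Both chr3L clusters shown were also listed little in the libraries numbered 1. Of the 7 sites at chr3L:1578920-1578992, HiSeq 1, HiSeq 2, NextSeq 1 and NextSeq 2 listed 1, 7, 0 and 5. Of the 6 at chr3L:1577278-1577335 they listed 0, 3, 1 and 5. The cluster at chr2L:14090935-14090974 had 2, 5, 3 and 3 of its 6 sites listed in the same order of libraries. Over all 116 clusters of the tracts, both libraries numbered 2 listed more sites than either numbered 1 in 40.

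Reference bases beside the sites were known for few positions. Counting every table line, the base 5′ of a detected tract site was known in 127 cases and was A in 104, T in 17, C in 4 and G in 2 (1.57% G, exact 95% binomial interval 0.191 to 5.57). Neighbouring positions with A-to-G lines of their own raise that share of A, whether or not they are edited. With positions listed only as A-to-G or T-to-C left out, 34 bases were known on the 5′ side, of which 2 were G (5.88%, 0.720 to 19.7), and 40 on the 3′ side, of which 7 were G (17.5%, 7.34 to 32.8). At 3 to 10 bases on either side G made up 13.2% of 779 known bases. The share of 13.2% lay inside both of the latter intervals. Counting every line, G made up 7.97% of 1293 known bases at 3 to 10 bases, above the 5′ interval of 0.191 to 5.57. On the 3′ side, again counting every line, it was 5.88% of 119 (2.4 to 11.7), an interval that held 7.97%. No test was made, since neighbouring sites share their sequence.

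Listed sites inside the tracts were spaced in short clusters separated by long stretches without listed sites. Of the 449 gaps between neighbours, 66 were 1 bp, 155 were at most 10 bp and 242 at most 100 bp, whereas 107 exceeded 1000 bp and 20 exceeded 5000 bp. The median gap was 48.0 bp. Joining sites at gaps of at most 100 bp gave 116 clusters of 2 or more sites, which held 358 sites (74.0%) with a median length of 16.5 bp, and 126 sites stood alone. Pairs were the commonest clusters, at 56. A further 23 clusters held 3 sites, 22 held 4, 5 held 5, 7 held 6, 2 held 7 and 1 held 8.

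**Figure D1:**
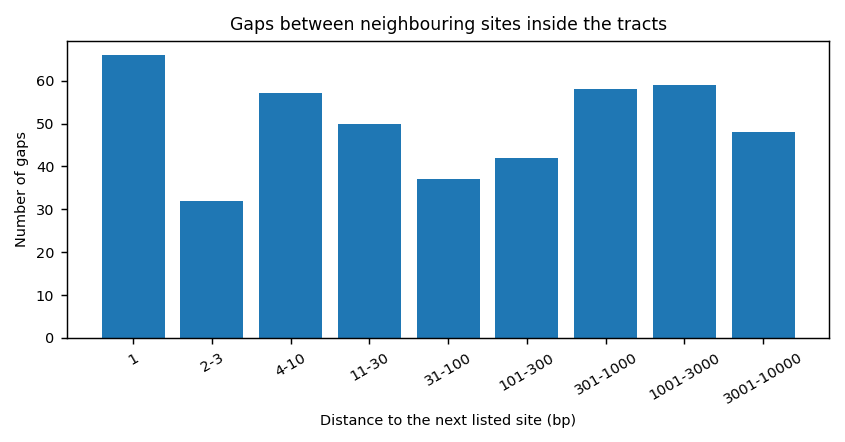
Number of gaps (y axis) between neighbouring listed sites inside the 35 tracts, by length in bp (x axis, classes of growing width). Directly adjacent bases (1 bp) make up 66 of 449 gaps, and 107 gaps exceed 1000 bp.

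The tracts ranged from 461 bp to 37377 bp in length, with a median of 10835 bp, and together spanned 407035 bp. They held 8 to 33 sites (median 11) at 0.433 to 19.5 sites per kb (median 1.42). At the threshold, 3 tracts held 8 sites and 10 held 9, while 8 tracts of 7 sites and 14 of 6 sites fell outside. The largest gap within any tract was 9935 bp, in tract 31, and the nearest listed site outside any tract lay 10075 bp from tract 28. Chromosome X carried 14 tracts with 213 sites, 51.7% of all sites listed on X. Arm 3L carried 7 tracts with 90 sites (44.1%), 2L 5 tracts with 83 (48.0%), 2R 5 tracts with 56 (34.6%), 3R 3 tracts with 33 (14.8%) and chromosome 4 1 tract with 9 (28.1%). No tract lay on a heterochromatin scaffold.

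**Figure D2:**
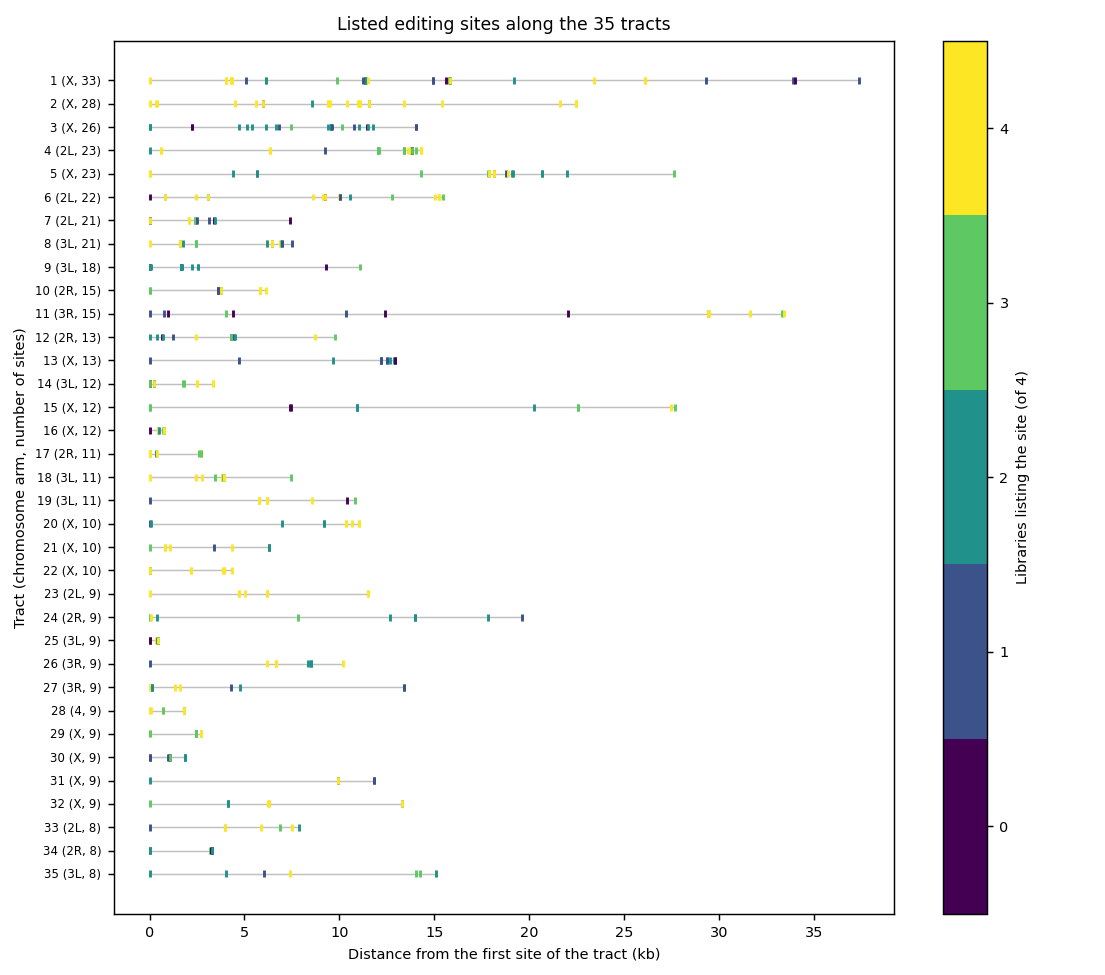
Listed sites (ticks) along each of the 35 tracts (rows, numbered by rank, with arm and number of sites), by distance in kb from the first site. Colour gives the number of the 4 libraries that list A-to-G or T-to-C at the site: tract 23 is in all 4 throughout, and in tract 3 no site is.

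Each tract was, with 2 exceptions, edited on a single strand. The reference base was known at the 450 sites detected in at least 1 library, A at 246 (forward strand) and T at 204 (reverse strand). It was A throughout in 20 tracts and T throughout in 13. Neighbours at most 1000 bp apart had the same base in all 60 known pairs at 1 bp, all 79 at 2 to 10 bp, all 74 at 11 to 100 bp and all 87 at 101 to 1000 bp. Beyond 1000 bp, 86 of 89 pairs had the same base.

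The 3 changes of base lay in tracts 24 and 19. Tract 24, chr2R:9697052-9716666, held 6 sites with A and 3 with T in 19615 bp. The T sites at 9709704, 9711023 and 9711024 lay between A sites, 4820 bp after the site at 9704884 and 3870 bp before that at 9714894. All 9 were detected somewhere, 6 each in HiSeq 1, HiSeq 2 and NextSeq 2 and 2 in NextSeq 1, but 1 alone was in all 4 libraries. In tract 19, chr3L:6937020-6947854, 9 sites had T and the first site had A, 5760 bp before the next. That A site was listed in HiSeq 2 only, while 8 of the T sites were in all 4 libraries, each with both letter cases in every one of them. Joining at gaps of at most 5000 bp instead of 10000 bp left 28 tracts of 8 or more sites, all 28 with 1 base. This did not separate the bases of tract 24. Its T sites stayed joined to the A sites at 9704884 and 9714894, and that mixed group left the count by falling below 8 sites.

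On chromosome X, the 2 largest tracts both lay on the reverse strand and differed in detection. Tract 1, chrX:17820657-17858033, was the longest, with 33 sites in 37377 bp, of which 23 lay in 8 clusters. Detection was 18 in HiSeq 1, 26 in HiSeq 2, 15 in NextSeq 1 and 23 in NextSeq 2, and 13 sites were in all 4. Recurrence was uneven along it: all 7 sites from 17820657 to 17824981 were in all 4 libraries, but 2 of the 6 sites of the cluster at 17836427 to 17836482 were. Tract 2, chrX:16354271-16376726, held 28 sites in 22456 bp, 19 of them in 6 clusters and 7 at 1 bp from the site before. It was listed almost in full, 26, 28, 25 and 27 sites in the same order of libraries, with 25 sites in all 4. Its exceptions were the lone site at 16362816 and 1 site each in the clusters of 4 at 16360231 to 16360237 and at 16365844 to 16365847.

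Tract 3, chrX:17871687-17885717, began 13654 bp beyond the end of tract 1 and also carried T, at all 22 of its detected sites. Of its 26 sites, 14 lay in 5 clusters and 12 alone, the most lone sites of any tract. HiSeq 1 and NextSeq 1 listed 1 site each, at different positions, whereas HiSeq 2 listed 22 and NextSeq 2 listed 17. No site was in all 4 libraries, and 4 were in none, among them both sites of the pair at 17873923 to 17873927. Both libraries numbered 2 exceeded both numbered 1 here, as they did in 28 of the 35 tracts and over the whole list (76.3% and 72.0% against 44.9% and 40.5%). Differences other than A-to-G and T-to-C, which need reads but not editing, were also few there: 0.998 per kb in HiSeq 1, 2.57 in HiSeq 2, 4.85 in NextSeq 1 and 26.7 in NextSeq 2, against medians over the 35 tracts of 5.14, 7.63, 25.2 and 54.9 per kb. How far this accounts for the missing sites was not tested.

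The other X tracts on the reverse strand were smaller. Tract 5, chrX:11843915-11871571, held 23 sites in 27657 bp, all of them detected: 13 in HiSeq 1, 21 in HiSeq 2, 10 in NextSeq 1 and 22 in NextSeq 2. It had 7 clusters, the largest of 5 sites at 11861745 to 11861815. Tract 16, chrX:21500015-21500764, packed 12 sites into 750 bp (16.0 per kb), and its detection differed little between libraries, 9, 9, 7 and 10 sites. Tract 29, chrX:408285-410997, had 9 sites, all in clusters, with 8, 7, 5 and 9 listed. Its HiSeq 2 count was the single one of the 35 below the HiSeq 1 count. Tract 32, chrX:16399583-16412866, lay 22857 bp beyond tract 2 and held 9 sites, with 6, 8, 4 and 9 listed. Tract 30, chrX:3753661-3755538, had few sites listed in any library: 1, 4, 2 and 4 of 9 sites, none of them in all 4 and none with both letter cases. HiSeq 1 listed no other kind of difference in its 1878 bp.

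Of the 6 X tracts on the forward strand, tract 22 was detected most fully. At chrX:18064143-18068512 its 10 sites were listed at 9, 9, 9 and 10, with 8 in all 4 libraries. Tract 20, chrX:1668888-1679936, had 10 sites in 4 pairs and 2 lone sites, with 5, 8, 6 and 10 listed, which put NextSeq 15.0 points above HiSeq, the largest such excess of the 35. Tract 21, chrX:5290552-5296857, also had 10 sites, listed at 6, 9, 6 and 7. Tract 15, chrX:8807793-8835501, was the sparsest by length, 12 sites in 27709 bp, and was seen mainly in the libraries numbered 2: 3 and 4 sites in HiSeq 1 and NextSeq 1 against 10 in each of the others. Tract 13, chrX:14881028-14893971, had few listed differences of other kinds. Its 13 sites were listed at 3, 8, 1 and 5, none in all 4 but 12 in at least 1, and other differences numbered 0.464, 2.01, 3.48 and 10.7 per kb, the lowest of all tracts in HiSeq 2, NextSeq 1 and NextSeq 2. Tract 31, chrX:12527136-12538980, consisted of a lone site, the 6 sites in 9 bp shown above, and a pair, with 3, 7, 3 and 8 listed.

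On 2L, tract 23 was the most completely detected of all. At chr2L:2779342-2790828 its 9 T sites, in clusters of 2, 3 and 2 with 2 lone sites, were listed in all 4 libraries with no exception, and each had both letter cases in at least 1. Differences other than A-to-G and T-to-C were also dense in it. In HiSeq 1, HiSeq 2, NextSeq 1 and NextSeq 2 they numbered 14.1, 16.0, 55.6 and 102 per kb, against medians of 5.14, 7.63, 25.2 and 54.9. Their part in its detection was not tested. Tract 4, chr2L:14077162-14091478, held 23 sites on the forward strand, 13 in HiSeq 1, 21 in HiSeq 2, 14 in NextSeq 1 and 19 in NextSeq 2, and 11 in all 4. Detection changed between neighbouring clusters of it: the 6 sites at 14090935 to 14090974 had 2 in all 4 libraries, and the 3 at 14091460 to 14091478 had 3. Tract 6, chr2L:9799321-9814785, held 22 sites, T wherever known, with 13, 20, 14 and 19 listed. Tract 7, chr2L:13485127-13492507, contained the first 2 clusters shown above, which held 15 of its 21 sites, and 9, 17, 7 and 16 sites were listed. Tract 33, chr2L:4310615-4318481, had 8 A sites, 6, 8, 5 and 7 of them listed.

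The 4 remaining tracts of 2R were on the forward strand. Tract 10, chr2R:13258788-13264908, held 15 sites, 14 of them in clusters of 2 to 4, with 10, 14, 11 and 13 listed and 9 in all 4. Its clusters differed: the 4 sites at 13264614 to 13264630 were each in all 4 libraries, and of the 4 at 13262374 to 13262393 1 was. Tract 17, chr2R:7335106-7337842, had 11 sites, 9 and 8 in the libraries numbered 1 and all 11 in those numbered 2. Tract 12, chr2R:20797921-20807676, had 13 sites with 3, 10, 4 and 9 listed. Tract 34, chr2R:12534985-12538295, was nearly invisible in the libraries numbered 1, with 1 and 0 of 8 sites, against 6 and 4 in those numbered 2. Differences other than A-to-G and T-to-C were also few there. They numbered 0.604, 3.32, 9.97 and 26.0 per kb in HiSeq 1, HiSeq 2, NextSeq 1 and NextSeq 2, against medians of 5.14, 7.63, 25.2 and 54.9. Their part in the missing sites was not tested.

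On 3L, tract 9 resembled tract 3. At chr3L:1577278-1588377 it held 18 sites in 11100 bp, with A at the 17 detected, 13 of them in 2 clusters at its start, and HiSeq 1 and NextSeq 1 listed 3 and 1 of them, against 13 and 14 in HiSeq 2 and NextSeq 2. No site was in all 4 libraries. Tract 25, chr3L:20766250-20766710, was the shortest and densest, 9 sites in 461 bp (19.5 per kb), with 2, 7, 2 and 8 listed. Its 6 sites at 20766572 to 20766710 were all listed in both libraries numbered 2, and the first and last of them in all 4. Tract 8, chr3L:4584256-4591742, held 21 sites, all with A and all detected: 12 in each library numbered 1 and 20 in each numbered 2. Tract 14, chr3L:4429963-4433320, had 12 sites, all in clusters of 2 or 3, with 9, 11, 5 and 10 listed. Tract 18, chr3L:2937497-2944933, had 11 sites, 8 in each library numbered 1 and 11 in each numbered 2. Tract 35, chr3L:9140925-9156024, had 8 T sites, 6 of them alone, with 4, 6, 4 and 7 listed.

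The tracts of 3R and chromosome 4 completed the set. Tract 11, chr3R:5244217-5277661, was long and thin, 15 sites in 33445 bp of which 11 stood alone, and 4 were in no library, the same number as in tracts 1 and 3 and the largest share, 26.7%, of any tract. The rest were listed at 7, 11, 6 and 8. Its cluster of 4 at 5273660 to 5273681 was listed at 4, 4, 3 and 4. Tract 26, chr3R:116584-126751, had 9 A sites with 6, 8, 5 and 8 listed. Tract 27, chr3R:27423154-27436549, had T at its 8 detected sites of 9, with 3, 8, 3 and 5 listed. Tract 28, chr4:1061062-1062883, had 9 T sites in 3 clusters, listed at 8, 8, 9 and 8, and was the single tract whose mean share was lower in the libraries numbered 2 (a difference of -5.56 points).

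**Figure D3:**
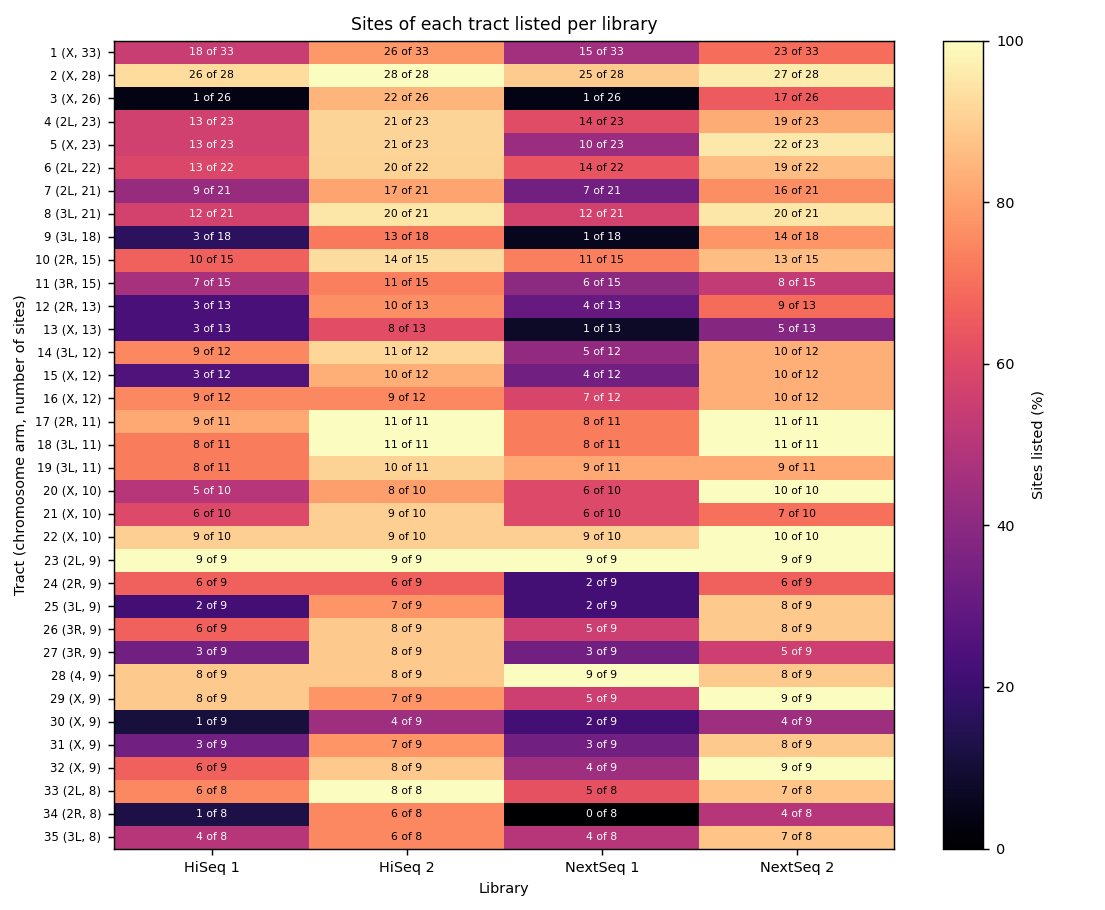
Sites of each tract (rows, numbered by rank, with arm and number of sites) listed in each library (columns), as a count in the cell and as a percentage by colour. Tract 3 shows 1 of 26 sites in both libraries numbered 1 and 22 and 17 in those numbered 2, and tract 23 shows 9 of 9 in every library.

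Detection of the 484 tract sites as a whole was 53.7% in HiSeq 1 (260 sites), 84.9% in HiSeq 2 (411), 48.8% in NextSeq 1 (236) and 81.0% in NextSeq 2 (392), against the 44.9%, 76.3%, 40.5% and 72.0% of the whole list. Tract sites in all 4 libraries numbered 191 (39.5%, exact 95% binomial interval 35.1 to 44.0), against 29.2% of the list, and tract sites in no library numbered 34 (7.02%, 4.91 to 9.68), against 12.4%. In 16 tracts every site was detected in at least 1 library. In 5 tracts, numbers 3, 9, 13, 30 and 34, no site was in all 4. These intervals cover counting error alone and treat sites as independent, which sites of the same transcript are not.

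Tract sites were detected more often than the other 754 listed sites in each of the 4 libraries. The mean share was 67.1% ± 18.5 (SD, n = 4) in tracts and 52.9% ± 18.2 (SD, n = 4) outside, a difference of 14.2 points that ranged from 13.5 in NextSeq 1 to 14.8 in NextSeq 2 (exact sign-flip permutation test over libraries, two-sided, p = 0.13, the smallest p that 4 libraries allow). The difference was positive in 4 of 4 libraries, but a design of this size cannot pass the usual threshold. HiSeq and NextSeq libraries of the same number may share a preparation, so the 4 are not known to be independent of one another. Nor are the shares known to be independent of the site list, which may have been called from these same libraries. Detection fell in the order of tract size within each library: in HiSeq 2 it was 84.9% in the tracts, 75.2% at the 528 sites in tracts of 2 to 7 and 60.2% at the 226 single sites, and in HiSeq 1 it was 53.7%, 43.8% and 28.8%. In NextSeq 2 the shares were 81.0%, 70.3% and 56.6%, and in NextSeq 1 48.8%, 40.2% and 23.9%. Other kinds of difference near the sites were also compared. Summed over libraries, a base change of another kind, neither A-to-G nor T-to-C, lay within 25 bp of 47.0% of tract sites, 43.2% of sites in tracts of 2 to 7 and 34.5% of single sites. In HiSeq 1 the order differed, at 19.6%, 21.2% and 11.5%. Their part in the result was not tested.

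**Figure D4:**
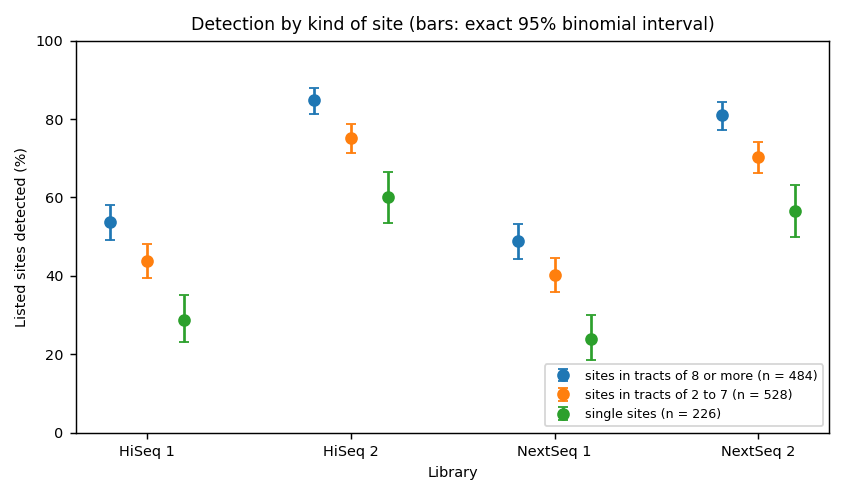
Percentage of listed sites detected (y axis) in each library (x axis), for sites in tracts of 8 or more, in tracts of 2 to 7 and single sites; points are shares and bars exact 95% binomial intervals, which cover counting error only. The tracts lie highest in each of the 4 libraries, from 48.8% to 84.9%.

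The libraries numbered 2 listed more tract sites than those numbered 1, by 31.2 points on HiSeq and 32.2 points on NextSeq. The gap was nearly the same over the whole list of 1238 sites, 31.3 and 31.4 points. With 2 libraries of each number no test of this was made. More sites were listed in HiSeq 2 than in HiSeq 1 in 29 tracts, fewer in 1 and the same number in 5. On NextSeq the numbers were 32, 1 and 2. Of the single patterns of detection, presence in all 4 libraries was the commonest and presence in both libraries numbered 2 alone came next, with 93 sites (19.2%). That pattern made up 57.7% of tract 3, 55.6% of tract 25 and 50.0% of tract 9. Altogether 152 tract sites were in a library numbered 2 and in none numbered 1, and 9 the reverse. These patterns were not counted over the whole list, so they are not shown to be particular to the tracts.

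The gap between the numbers was set beside the density of other differences. Differences other than A-to-G and T-to-C were 2.44 times as many in the tables numbered 2 as in those numbered 1 over the whole genome, 1.68 times on HiSeq and 2.62 times on NextSeq, although the gap in detection was alike on both. Within tracts that ratio, from counts summed over both instruments, ran from 1.29 in tract 16 to 6.11 in tract 30, with a median of 2.02. NextSeq gave most of these counts, whereas the gap in detection weighs both instruments alike. In HiSeq 1, HiSeq 2, NextSeq 1 and NextSeq 2, tract 3 had 14, 36, 68 and 375 such differences. Tract 28 had 5, 6, 33 and 100. Tract 3 had a ratio of 5.01 and the largest gap in detection, 71.2 points, followed by tract 9 at 3.27 and 63.9 points and tract 25 at 3.42 and 61.1 points. Tract 2 had 1.73 and 7.14 points. Across the 35 tracts Spearman's rho between the ratio and the gap was 0.585, as a description: the tracts share the same 4 libraries. Tract 28, with a ratio of 2.79 and -5.56 points, and tract 30, with 27.8 points, lay off this trend. Within a single library, rho between other differences per kb and the share of sites detected was 0.650, 0.453, 0.635 and 0.494 over the 35 tracts in HiSeq 1, HiSeq 2, NextSeq 1 and NextSeq 2.

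**Figure D5:**
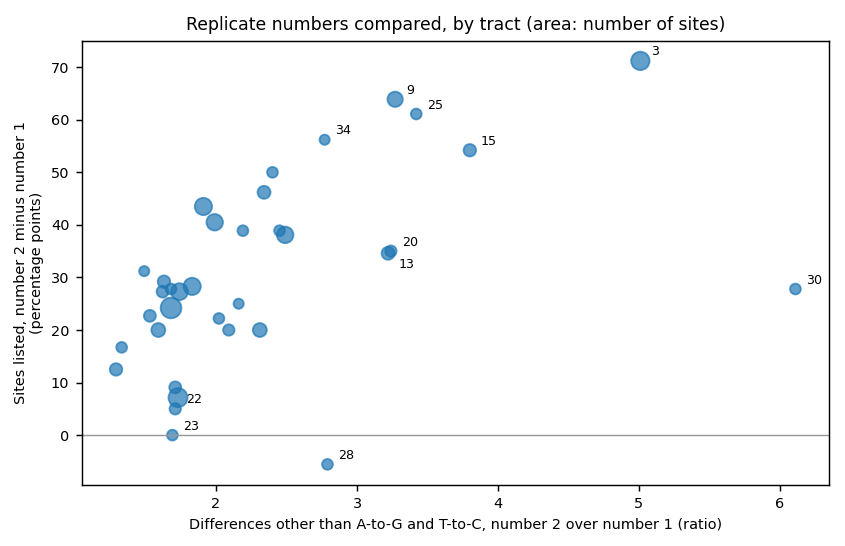
Share of sites listed in the libraries numbered 2 minus those numbered 1 (y axis, percentage points, mean of both instruments) against the ratio of differences other than A-to-G and T-to-C (x axis, counts summed over both instruments), for the 35 tracts. Point area is proportional to the number of sites, and tracts named in the corners are numbered by rank. Tract 3 lies at 5.01 and 71.2 points, tract 28 below 0.

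The instruments differed less. Tract sites were detected at 64.9% ± 22.8 (SD, n = 2) on NextSeq and 69.3% ± 22.1 (SD, n = 2) on HiSeq, a difference of -4.44 points (exact permutation test over the 4 libraries, two-sided, p = 0.667; the smallest possible is 0.33). Over the whole list the difference was -4.32 points. The difference was -4.96 points for number 1 and -3.93 points for number 2, well inside the spread between numbers. By tract it ran from -22.2 points in tract 24 to 15.0 points in tract 20, with a median of -3.57. HiSeq libraries alone listed 52 sites, of which 45 were in HiSeq 2 only and 1 was in both HiSeq libraries. NextSeq libraries alone listed 19, of which 14 were in NextSeq 2 only and 3 in both NextSeq libraries. Most of these sites were thus in a single library, and the same counts were not made over the whole list. Read length differs between the instruments as well, and these cannot be told apart.

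Where the tables write the same change in upper and lower case, it is read here as seen on both read strands, which the files do not state. By that reading 321 of the 484 tract sites were seen on both strands in at least 1 library and 62 in all 4. Of the detected tract sites, 40.8% in HiSeq 1, 63.7% in HiSeq 2, 41.5% in NextSeq 1 and 65.8% in NextSeq 2 had both cases. At detected sites in tracts of 2 to 7 the shares were 39.8%, 54.9%, 38.7% and 55.3%, within 3 points of the larger tracts in the libraries numbered 1. At detected single sites they were 23.1%, 40.4%, 31.5% and 42.2%. Other base changes at tract positions numbered 43, of which 1 recurred in 2 or more libraries.

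Neighbouring sites close together shared their pattern of detection more often than those far apart. Neighbours 1 bp apart had the same pattern over all 4 libraries in 48.5% of 66 pairs. The share was 40.4% at 2 to 10 bp, 39.1% at 11 to 100 bp, 35.0% at 101 to 1000 bp and 27.1% of 107 pairs beyond. Within single libraries, adjacent bases were both listed or both missing in 80.3%, 84.8%, 71.2% and 81.8% of pairs in HiSeq 1, HiSeq 2, NextSeq 1 and NextSeq 2, and sites more than 1000 bp apart in 57.0%, 67.3%, 60.7% and 69.2%. The fall was not even: at 11 to 100 bp the share was 73.6% in NextSeq 1 and 86.2% in HiSeq 2, above that of adjacent bases in both. Sites within a read length can be carried by the same reads, so these pairs are not independent observations. Where most sites are listed, as in HiSeq 2 (84.9%) and NextSeq 2 (81.0%), unrelated sites also agree often. The shares can thus not be compared between libraries. By distance within a library they also lack a baseline, since the agreement of unrelated sites was not computed for each class of distance. Clusters were still often split: of the 116, 31 had every site in all 4 libraries, 46 had none there, and 39 had some. Sites in clusters were in all 4 libraries in 42.2% of cases (151 of 358) and lone tract sites in 31.7% (40 of 126), while 6.70% and 7.94% were in none.

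A site missing from a library was more often without any other difference nearby. In HiSeq 1, a base change of another kind, neither A-to-G nor T-to-C, lay within 25 bp of 30.8% of the 260 detected tract sites and of 6.70% of the 224 undetected ones. In HiSeq 2 the shares were 29.4% and 19.2%, in NextSeq 1 74.6% and 30.6%, and in NextSeq 2 91.8% and 73.9%. In NextSeq 2, therefore, 68 of 92 undetected tract sites lay close to a position with some listed difference, which requires a read in the neighbourhood, though not at the site itself.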

How the data were processed

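The authors mapped reads to dm3 (BDGP R5) by TopHat 2.0.6 with Bowtie 2.0.2, per the labels' protocols. Up to 4 mismatches and a single alignment were allowed for a read, and bsmap 2.74 was then run on what had not mapped. The submitters' processing notes also list SAMtools 0.1.19. The mismatch limit can remove reads of densely edited stretches. The rules by which differences and sites were called are not given in the sources used here. The authors deposited a list of 1-bp positions and 4 tables of reference and differing base, per the file headers, without counts or levels.

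Sites were joined at gaps of at most 10000 bp; clusters inside tracts at gaps of at most 100 bp. Strand was taken from the reference base at detected sites. Libraries, not sites, were the unit of the 2 exact tests; replicate numbers were not used as pairs, since the labels do not say what they share. Every tract is named, with more detail for the 10 with the most sites, those at the extremes of recurrence or of the difference between numbers, and those with both bases. The members and rules were chosen with earlier results of these data known. The steps were tested on simulated lists. Python 3.11.15, numpy 2.4.6, scipy 1.17.1 and matplotlib 3.10.9 were used. Alternatives were other gaps, other minimum sizes, both read strands and leaving out libraries. Sequence of arm 2R is not shown.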

Additional observations from a re-analysis of the deposited data

Results flagged for a closer look

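Inside the tracts, 442 positions outside the site list showed A-to-G on the tract's strand in 2 or more libraries. This is a signal outside the authors' list that no comparison of detection above used. The printed sequences and the neighbouring bases counted over every line do include such positions. The 442 exceeded the 78 positions on the opposite strand and the 107 positions with G-to-A on the tract's strand, counted the same way. They occurred in 33 of the 35 tracts, and 45 were in all 4 libraries. Tract 1 held the most, 42, followed by tract 2 with 34 and tract 11 with 33. Tract 2 had 7 in all 4 libraries and tract 23 had 8, of which 3 lay at 2785605, 2785610 and 2785621, 63 to 79 bp from the nearest listed site. In tract 7, unlisted positions at 13487213 and 13487215 enclosed the listed site at 13487214 and were in all 4 libraries. The median distance to a listed site was 139 bp. Of the 442, 30 (6.79%) were adjacent to a listed site, 101 (22.9%) lay within 10 bp and 207 (46.8%) within 100 bp. HiSeq and NextSeq tables of the same number may share a library preparation, so presence in 2 libraries need not be independent recurrence. Of the 442, 248 were in both libraries numbered 2 and 153 in both numbered 1. Those in 3 or more libraries, which span both numbers, were 120. Sequencing error, strain variants and misplaced reads as sources were not tested here.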

How the results depend on the processing

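The tract rule set the counts: a minimum of 6 sites gave 57 tracts and one of 10 sites gave 22, against 35. The difference between instruments stayed negative under every gap, minimum size, read-strand and replicate setting run, from -4.96 to -1.24 points. With the replicate block, that is, sign flips within the 2 same-numbered pairs, it was -4.44 points (exact permutation p = 0.5, the smallest possible). The excess of tract sites over other sites ran from 12.9 to 15.7 points. The gap between numbers was 32.6 points when both read strands were required and 29.5 points without tract 3, a setting added after the data were seen. Requiring both read strands left 62 tract sites in all 4 libraries, against 191, and raised those in no library from 34 to 163. Without replicate 1 that count was 43, and without replicate 2 it was 186. Unlisted positions numbered 2775 in 1 or more libraries and 120 in 3 or more, 248 without replicate 1 and 153 without replicate 2. Undetected sites with any other difference within 25 bp made up 44.1%, 31.4% within 10 bp and 58.2% within 50 bp; counting only kinds other than A-to-G and T-to-C, also added later, 27.2%. G 5′ of sites was 1.57%, or 5.88% with A-to-G and T-to-C lines left out. The causes of these shifts were not tested. Depth is unknown, so absence from a table does not show absence of editing.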
